A study of Mus musculus with 34 samples.

Results

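The RNA of 9 genes that mark the primitive endoderm (Gata4, Gata6, Sox17, Sox7, Foxa2, Pdgfra, Dab2, Hnf4a and Lama1) was followed through all 34 RNA-seq libraries of mouse embryonic stem cells (ES cells). The genes were taken by name, without a threshold on their counts, from 48709 genes counted in 16 libraries and 22018 genes counted in the other 18. The study removed Mta1, Mta2 and Mta3, the related subunits that scaffold the deacetylase part of the nucleosome remodelling and deacetylation complex NuRD, and asked what this did to gene expression in self-renewing ES cells and in ES cells leaving that state.

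All cells were of strain 129/Ola and were grown on gelatin. The 16 libraries of the Mta123KO set came from Control and Mta123KO cells, with 4 libraries of each genotype labelled 2i+LIF (called labelled 2iL here) and 4 of each labelled as 48 h in N2B27 with neither inhibitors nor LIF (labelled 48h). In 2i+LIF, inhibitors of MEK and GSK3 together with the cytokine LIF keep ES cells in the naive state, and N2B27 is the serum-free base medium in which they leave it. The study's list of cell lines gives its Control line as heterozygous for a deletion of Mta1 with floxed Mta3 alleles, while its text also calls control cells wild type, and the labels say Control alone. Mta123KO cells were made by removing Mta2 from cells that lacked Mta1 and carried floxed Mta3, followed by Cre. Library names were read as giving a line and a library of it, so that each group of 4 held 2 lines with 2 libraries each. Libraries of a line share their origin, and p-values over them are too small for a statement about lines. The 18 single-mutant libraries were all labelled 2i+LIF, with 3 each of Mta1_del/del and Mta1_flox/flox, Mta2_KO and Mta2_WT, and Mta3_del/del and Mta3_flox/flox. Mta2_KO was 1 line. Nothing in the labels says whether these 3 are separate cultures, so their p-values measure only the spread between these libraries, which may be technical.

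The primitive endoderm is the layer of extraembryonic cells that forms on the inner cell mass next to the blastocyst cavity and later gives rise to the visceral and parietal endoderm of the yolk sacs. FGF signalling through ERK favours it over the epiblast, the layer that ES cells resemble, and the transcription factor GATA6 starts its programme. SOX17, GATA4 and SOX7 act after GATA6, the receptor PDGFRA promotes survival of the cells, and the maturing endoderm makes HNF4A, the endocytic adaptor DAB2 and a laminin-rich basement membrane.

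Libraries held 37855790 to 57602285 counts in the Mta123KO set and 13105820 to 40613585 counts in the single-mutant set. Mta2 RNA fell from a mean of 122 to 6.73 CPM (read counts scaled to a common library size by TMM) in Mta123KO labelled 2iL, from 193 to 8.27 CPM in Mta123KO labelled 48h and from 236 to 10.3 CPM in Mta2_KO. Mta3 fell from 67.4 to 11.2 CPM in Mta3_del/del, while in Mta123KO Mta3 changed by -1.76 (2iL label) and -1.44 (48h label) and Mta1 by -0.76 and -0.67 on the log2 scale, Mta3 under the 48h label by -1.01 in line 1 and -2.04 in line 2. Mta1 in Mta1_del/del, at 43.4 CPM against 84.5 CPM, did not pass the test (adjusted p = 1). Markers of culture state ran against the labels of the Mta123KO set. The summed level of 11 naive pluripotency genes was 179 to 268 CPM in Control labelled 2iL and 3872 to 4283 CPM in Control labelled 48h, beside 3458 to 6130 CPM in the parental and wild-type single-mutant libraries, which were labelled 2i+LIF. The summed level of 8 formative genes was 1396 to 2006 CPM in Control labelled 2iL and 117 to 137 CPM in Control labelled 48h. The deposited file names of the Mta123KO set also give the opposite culture. The labels were followed here, and if they are exchanged, the 2 genotype comparisons below swap places and each change with culture reverses its sign.

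Most of the 9 genes were weakly expressed. Per kilobase of exon, which allows levels of different genes to be compared, Lama1 (0.857 CPM per kb), Gata4 (0.677), Dab2 (0.653) and Gata6 (0.558) led in Control labelled 2iL, and Foxa2 (0.13 CPM per kb) was last. In Control labelled 48h, Lama1 stood far above the rest at 8.49 CPM per kb, followed by Gata4 at 0.484 CPM per kb, with Foxa2 last at 0.0169 CPM per kb. In Mta123KO labelled 2iL the order began with Dab2 (1.8 CPM per kb), Sox7 (1.01) and Lama1 (0.554), and in Mta123KO labelled 48h with Lama1 (2.7 CPM per kb), Dab2 (2) and Hnf4a (0.416). In bulk RNA, fewer cells of a type and less RNA per cell cannot be told apart, so a low mean may be few cells with much RNA or many with little.

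**Figure D1:**
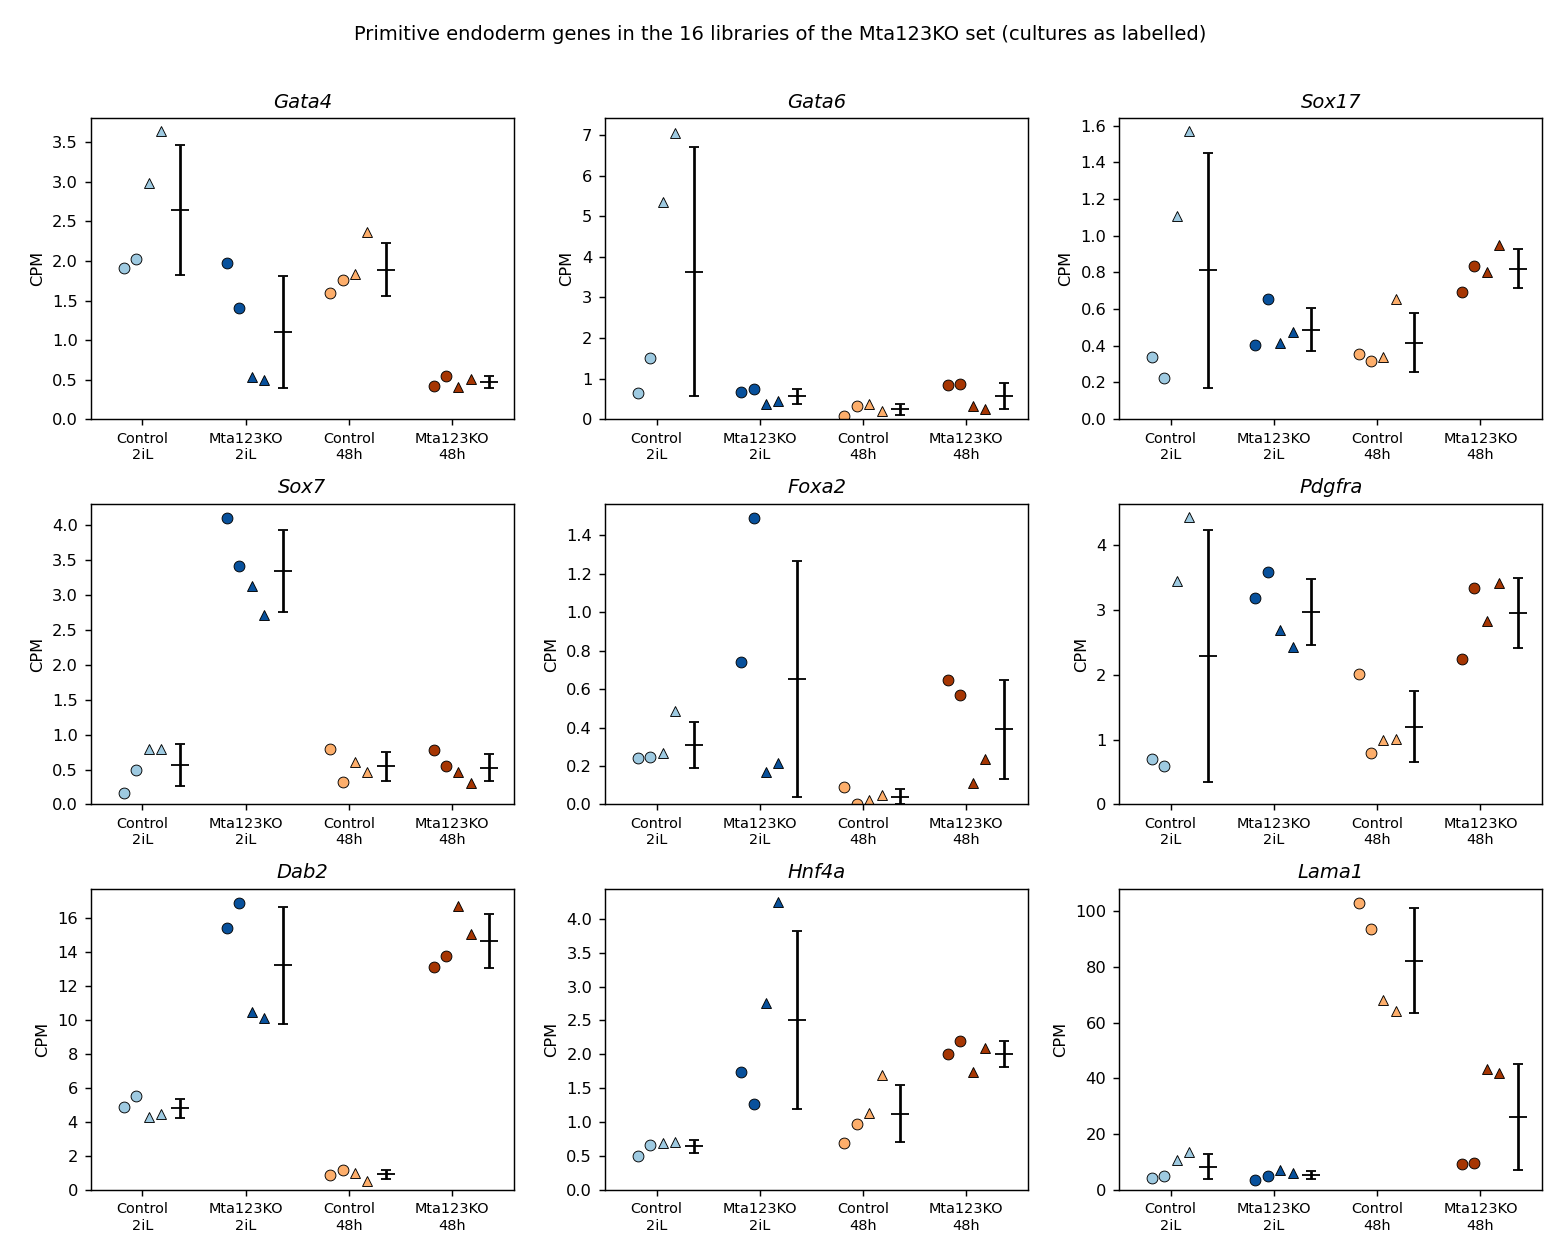
Level (CPM, linear axis) of each primitive endoderm gene in the 16 libraries of the Mta123KO set, with circles for line 1, triangles for line 2 and black bars for mean ± SD of 4 libraries. Dab2 lies between 10.1 and 16.9 CPM in the 8 Mta123KO libraries and at or below 5.54 CPM in the 8 Control libraries, and the Control labelled 2iL values of Gata6 and Pdgfra split by line.

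The first question was whether loss of the 3 MTA proteins changed these genes under each culture label. Among libraries labelled 2iL, 5 of the 9 genes passed the test (edgeR's quasi-likelihood test with Benjamini-Hochberg adjustment; a gene passed with an adjusted p below 0.05 if its log2 fold change lay beyond 1 in either direction), with Sox7, Hnf4a and Dab2 higher and Gata6 and Gata4 lower in Mta123KO. Over all 21651 genes tested, 20.6% passed. The median log2 fold change of the 9 genes was 0.38, beside 0.01 over all genes, so the set did not move 1 way. The calls of Sox7, Hnf4a and Dab2 were kept whichever of the 4 lines was left out, and those of Gata6 and Gata4 were not. Genes of a trophoblast list moved as well: 12 of 12 passed as higher, with summed levels of 19.9 to 25.1 CPM in Control and 139 to 624 CPM in Mta123KO, and their part in the results on the 9 genes was not tested.

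Gata6, the factor that starts the primitive endoderm programme (chromosome 18), read 0.637 and 1.5 CPM in the libraries of Control line 1, 5.34 and 7.06 CPM in those of Control line 2, and 0.679, 0.747, 0.367 and 0.455 CPM in Mta123KO. Control line 2 was high and Control line 1 overlapped Mta123KO. The log2 fold change was -2.68 ± 0.70 (SE, n = 4 and 4, adjusted p = 0.0108), and it was -0.94 ± 0.44 (adjusted p = 0.139) without Control line 2. An antisense gene, 1010001N08Rik, overlaps Gata6, and whether the counting used strand is not given in the sources used here. Sox17, Pdgfra, Dab2 and Hnf4a overlap antisense genes too.

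Gata4, a GATA factor active in both derivatives of the primitive endoderm (chr14:63198922-63271692, minus strand), was at 1.91, 2.03, 2.99 and 3.64 CPM in Control and at 1.97 and 1.40 CPM in Mta123KO line 1 and 0.538 and 0.499 CPM in Mta123KO line 2. Mta123KO line 2 lay below all Control libraries and line 1 reached into their range. The log2 fold change was -1.25 ± 0.45 (SE, adjusted p = 0.0415). This call was lost when either Control line (-1.59, adjusted p = 0.0642 without line 1 and -0.85, adjusted p = 0.268 without line 2) or Mta123KO line 2 (-0.64, adjusted p = 0.0862) was left out, and in 6 of the 8 fits that left out 1 library, all but those without the first library of Control line 1 or of Mta123KO line 1 (adjusted p of 0.0517 to 0.105).

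Sox7, an HMG-box factor that follows SOX17 in the primitive endoderm (chr14:63943673-63950732, plus strand), was at 0.159, 0.493, 0.798 and 0.794 CPM in Control and at 4.11, 3.42, 3.13 and 2.71 CPM in Mta123KO. Every Mta123KO library was above every Control library. Its log2 fold change was 2.58 ± 0.40 (SE, adjusted p = 0.000717). Sox17, the related factor at chr1:4490931-4497354 (minus strand), was at 0.338, 0.226, 1.11 and 1.57 CPM in Control and at 0.403, 0.656, 0.415 and 0.477 CPM in Mta123KO, with Control line 1 at the bottom of the range and Control line 2 at the top. It did not pass (log2 fold change -0.72 ± 0.56, adjusted p = 0.315), and its difference was 0.76 ± 0.37 without Control line 2 and -1.45 ± 0.30 (adjusted p = 0.0125) without Control line 1.

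Foxa2, a forkhead pioneer factor of endoderm (chr2:148042877-148046969, minus strand), was at 0.239, 0.246, 0.266 and 0.485 CPM in Control and at 0.742 and 1.49 CPM in Mta123KO line 1 and 0.171 and 0.217 CPM in Mta123KO line 2, or 7 to 66 counts per library. The Mta123KO lines fell on either side of the Control libraries, and the comparison of genotypes did not pass (1.09 ± 0.65, adjusted p = 0.19). Hnf4a, the nuclear receptor that drives the visceral endoderm's hepatocyte-like programme (chr2:163506808-163572910, plus strand), was at 0.498, 0.657, 0.696 and 0.706 CPM in Control and at 1.74, 1.27, 2.76 and 4.25 CPM in Mta123KO. The genotypes did not overlap, and the log2 fold change was 1.97 ± 0.37 (SE, adjusted p = 0.00201).

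Pdgfra, the receptor for PDGF that marks primitive endoderm cells (chr5:75152292-75198215, plus strand), was at 0.697 and 0.595 CPM in Control line 1, 3.44 and 4.43 CPM in Control line 2, and 3.18, 3.58, 2.69 and 2.43 CPM in Mta123KO. Mta123KO sat between the Control lines. The comparison over both lines gave 0.38 ± 0.59 (adjusted p = 0.616), while it passed as higher without Control line 2 (2.18 ± 0.25, adjusted p = 0.00166) and gave -0.41 ± 0.22 (adjusted p = 0.184) without Control line 1. Dab2, the clathrin adaptor that sorts receptors at the apical face of extraembryonic endoderm (chr15:6299788-6440712, plus strand), was at 4.86, 5.54, 4.30 and 4.48 CPM in Control and at 15.4, 16.9, 10.5 and 10.1 CPM in Mta123KO. All 4 Mta123KO libraries exceeded all 4 Control libraries, and the log2 fold change was 1.47 ± 0.19 (SE, adjusted p = 0.000265). Lama1, the laminin alpha chain of the embryo's early basement membranes (chr17:67697259-67822647, plus strand), was at 4.12, 4.82, 10.5 and 13.7 CPM in Control and at 3.63, 4.84, 7.01 and 5.96 CPM in Mta123KO, groups that overlapped, with a log2 fold change of -0.63 ± 0.39 (adjusted p = 0.203).

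Of the 9 genes, Dab2, Hnf4a, Pdgfra and Foxa2 had promoter sequences in the RefSeq table used here (GRCm38.p6). The sequences of the 3 that passed as higher in Mta123KO under at least 1 culture label are shown, from 250 bases before to 50 bases after the annotated start that lies farthest upstream, because GATA factors are members of the set. Capitals mark GATAA or its reverse complement TTATC, the letters searched on both strands as the core that GATA factors recognise.
Dab2, chr15:6299539-6299838, plus strand: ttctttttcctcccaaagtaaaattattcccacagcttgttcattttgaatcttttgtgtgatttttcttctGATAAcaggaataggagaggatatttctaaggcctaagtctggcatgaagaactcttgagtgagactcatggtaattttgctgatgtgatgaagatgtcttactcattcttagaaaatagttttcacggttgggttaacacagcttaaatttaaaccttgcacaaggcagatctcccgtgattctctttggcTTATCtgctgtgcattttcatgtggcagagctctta
Hnf4a, chr2:163506607-163506906, plus strand: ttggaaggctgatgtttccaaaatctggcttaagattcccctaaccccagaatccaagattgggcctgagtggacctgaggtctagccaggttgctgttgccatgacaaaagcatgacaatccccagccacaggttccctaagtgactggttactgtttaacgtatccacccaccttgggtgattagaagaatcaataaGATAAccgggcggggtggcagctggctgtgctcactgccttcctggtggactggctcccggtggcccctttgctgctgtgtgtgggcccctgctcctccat
Pdgfra, chr5:75152001-75152300, plus strand: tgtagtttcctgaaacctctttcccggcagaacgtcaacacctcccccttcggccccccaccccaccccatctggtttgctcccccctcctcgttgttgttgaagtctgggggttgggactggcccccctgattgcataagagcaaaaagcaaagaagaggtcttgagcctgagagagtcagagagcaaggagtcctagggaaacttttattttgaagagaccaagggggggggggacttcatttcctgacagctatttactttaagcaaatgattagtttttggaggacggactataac
The Dab2 window held 2 matches, 178 bases before the start on the plus strand and 14 bases after it on the minus strand, the Hnf4a window held 1 match, 51 bases before the start, and the Pdgfra window held 0. Windows at a further annotated start of Dab2 (chr15:6386498-6386797) and of Hnf4a (chr2:163546905-163547204) held 0 matches. Which start these cells use was not tested. These letters occurred in 8347 of 32851 promoter windows of the same length, or 25.4%, and a match describes the sequence and is not evidence of a bound site.

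Among libraries labelled 48h, 4 of the 8 genes tested passed, with Dab2 and Pdgfra higher and Gata4 and Lama1 lower in Mta123KO, where 20.0% of all genes tested passed. Their median log2 fold change was 0.93, beside 0.01 over all genes. Sox7 and Hnf4a, both higher in Mta123KO labelled 2iL, did not pass here. Foxa2 was left out by the filter on low counts. The trophoblast list again moved, with 9 of 11 tested genes higher and summed levels of 78.3 to 99.8 CPM in Control and 228 to 1033 CPM in Mta123KO, and its part in the results on the 9 genes was not tested.

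Dab2 was at 0.888, 1.16, 1.01 and 0.54 CPM in Control and at 13.1, 13.8, 16.7 and 15.1 CPM in Mta123KO. The groups were far apart and both lines of each genotype lay close together. The log2 fold change of 4.05 ± 0.21 (SE, adjusted p = 2.65e-06) had the largest absolute value of the 8 tested members. Pdgfra was at 2.01, 0.789, 0.988 and 1.01 CPM in Control and at 2.24, 3.33, 2.83 and 3.41 CPM in Mta123KO. The highest Control library came just under the lowest Mta123KO library, and the log2 fold change was 1.30 ± 0.30 (SE, adjusted p = 0.00545). It was 1.06 ± 0.39 (adjusted p = 0.0727) without Control line 2.

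Gata4 was at 1.60, 1.76, 1.83 and 2.37 CPM in Control and at 0.415, 0.548, 0.401 and 0.513 CPM in Mta123KO. Here the 2 Mta123KO lines were alike and every library was below every Control library, with a log2 fold change of -1.98 ± 0.21 (SE, adjusted p = 8.29e-05). Lama1 was at 103, 93.5, 68.3 and 64.3 CPM in Control and at 9.37 and 9.78 CPM in Mta123KO line 1 and 43.5 and 41.9 CPM in Mta123KO line 2. The genotypes did not overlap, but the Mta123KO lines differed widely, and the log2 fold change was -1.64 ± 0.51 (SE, adjusted p = 0.0232). It was -0.93 ± 0.18 (adjusted p = 0.00317), under the fold threshold, without Mta123KO line 1, and it lost its call without Control line 1 (-1.33, adjusted p = 0.156) or Control line 2 (-1.90, adjusted p = 0.0617) and without either library of Control line 1 (adjusted p of 0.0513 and 0.0557).

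Gata6 was at 0.0711, 0.316, 0.361 and 0.211 CPM in Control and at 0.831 and 0.856 CPM in Mta123KO line 1 and 0.334 and 0.256 CPM in Mta123KO line 2. Line 1 lay above all Control libraries and line 2 among them, and the comparison did not pass (1.29 ± 0.55, adjusted p = 0.0788). It passed as higher without Mta123KO line 2 (1.87 ± 0.49, adjusted p = 0.00927) or without the second library of that line (1.54, adjusted p = 0.0405). Sox17 was at 0.355, 0.316, 0.337 and 0.657 CPM in Control and at 0.692, 0.834, 0.801 and 0.952 CPM in Mta123KO. These groups did not overlap, and the log2 fold change of 0.99 ± 0.28 (adjusted p = 0.0149) fell just short of the fold threshold, which it passed without Control line 2 (1.28, adjusted p = 0.0149) or Mta123KO line 1 (1.09, adjusted p = 0.029).

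Hnf4a was at 0.693, 0.973, 1.13 and 1.69 CPM in Control and at 2.01, 2.19, 1.74 and 2.09 CPM in Mta123KO, without overlap, and its log2 fold change of 0.86 ± 0.26 (adjusted p = 0.0213) was also under the fold threshold. It passed without Control line 2 (1.28, adjusted p = 0.00861). Sox7 was at 0.799, 0.316, 0.602 and 0.469 CPM in Control and at 0.785, 0.548, 0.467 and 0.311 CPM in Mta123KO. Its groups covered the same range (-0.06 ± 0.36, adjusted p = 0.908). Foxa2 had 5, 0, 1 and 2 counts in the Control libraries, or at most 0.0888 CPM, where 3 counts are worth 0.0521 to 0.0792 CPM, and 28, 26, 5 and 13 counts (0.646, 0.570, 0.111 and 0.238 CPM) in Mta123KO. With no filter on low counts its log2 fold change was 3.08 ± 0.73 (SE, adjusted p = 0.00604, edgeR), a value that rests on few counts.

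**Figure D2:**
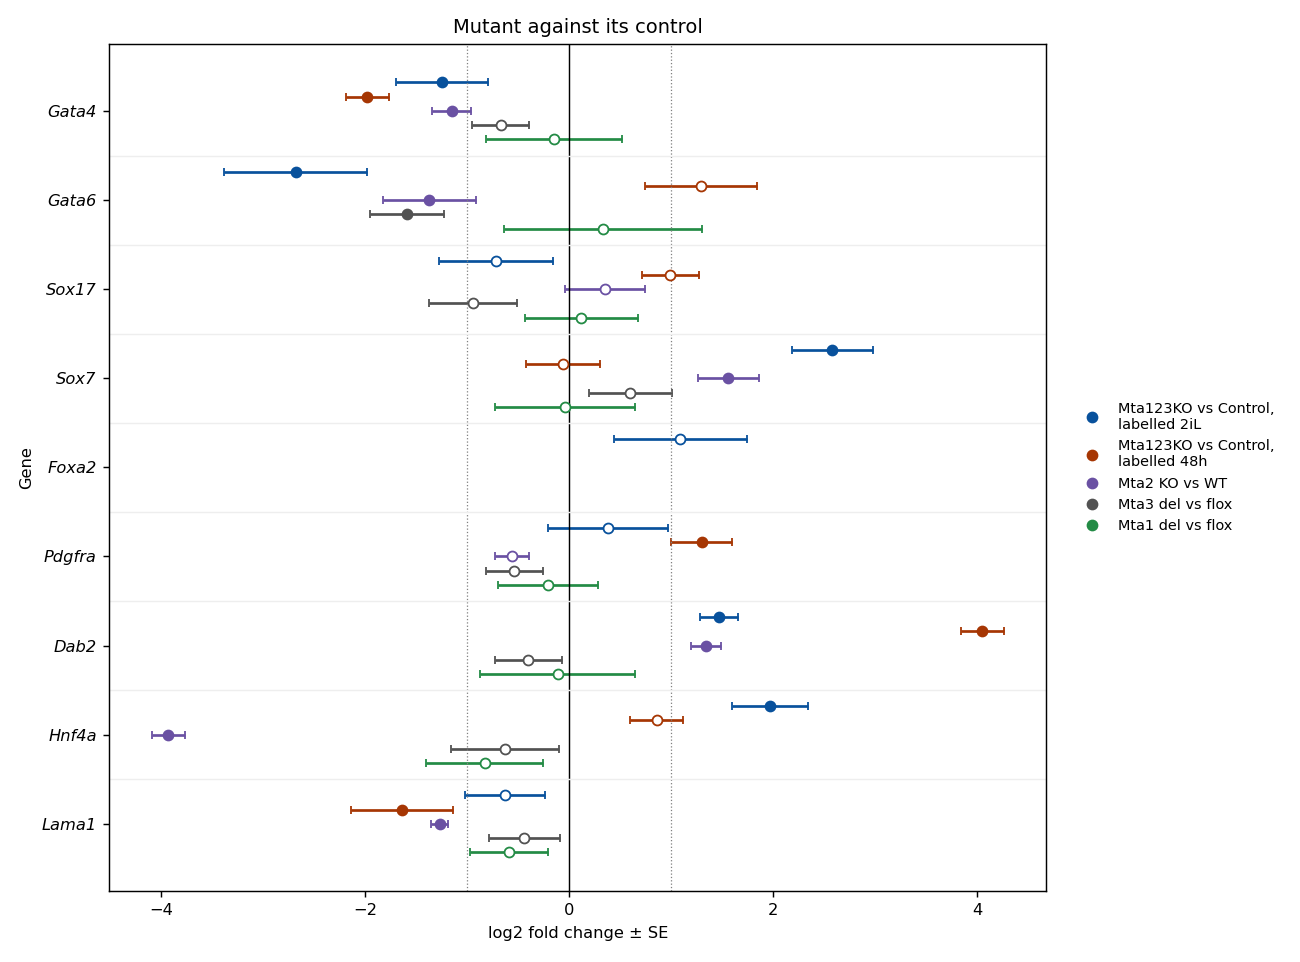
log2 fold change ± SE (horizontal axis) of each primitive endoderm gene in 5 comparisons of a mutant with its control, filled where the gene passed and open where it did not, with dotted lines at the fold threshold; a missing point was not tested. Gata4 and Lama1 are below 0 in all 5 comparisons, Dab2 reaches 4.05 in Mta123KO labelled 48h, and Hnf4a is at 1.97 in Mta123KO labelled 2iL and at -3.93 in Mta2_KO.

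The Mta123KO lines were then set apart, each against the Control libraries in a fit of 3 groups. Among libraries labelled 2iL, 5 of 9 genes passed in line 1 (27.0% of all genes) and 5 of 9 in line 2 (20.8%), and both comparisons share the 4 Control libraries. Side by side for line 1 and line 2, Sox7 (2.75 and 2.37), Hnf4a (1.23 and 2.45) and Dab2 (1.74 and 1.09) passed as higher. Gata6 passed as lower (-2.35 and -3.14), with the dependence on Control line 2 given above. Foxa2 passed in line 1 (1.85, adjusted p = 0.00125), and Gata4 in line 2 (-2.35, adjusted p = 0.000152). Tested directly against each other, the lines differed in 3 of 9 genes (11.4% of all genes), with Foxa2 (2.5 ± 0.50, adjusted p = 0.00292) and Gata4 (1.71 ± 0.38, adjusted p = 0.00557) higher and Hnf4a (-1.22 ± 0.27, adjusted p = 0.00545) lower in line 1.

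Among libraries labelled 48h, 6 of 9 genes passed in line 1 (24.9% of all genes) and 5 of 9 in line 2 (20.3%), again against the same 4 Control libraries. Side by side, Dab2 (3.93 and 4.16), Foxa2 (3.73 and 1.96, against at most 5 counts per Control library), Pdgfra (1.21 and 1.36) and Gata4 (-1.94 and -2.02) passed for line 1 and for line 2. Foxa2, left out of the comparison of genotypes, entered this fit only through its Mta123KO libraries, because the filter follows the smallest group, here a line. Its calls and its place in these counts rest on that and are not support for a change. Gata6 passed in line 1 (1.88, adjusted p = 0.00543), as did Lama1 (-3.08, adjusted p = 5.1e-07), and Sox17 in line 2 (1.08, adjusted p = 0.019). The direct test between lines found 1 of 9 genes (9.20% of all genes), Lama1, lower in line 1 by a log2 fold change of -2.14 ± 0.21 (adjusted p = 7.33e-05). Its mean in line 2 was 4.46 times that in line 1.

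The Control lines also differed, in a comparison added after the values had been seen. It was run on those same values, so its p-values and counts describe the split between these libraries and are not separate support for it. Among libraries labelled 2iL, 4 of 9 genes passed as higher in Control line 2 than in Control line 1, where 1.30% of all genes passed in either direction: Pdgfra (2.60 ± 0.22, adjusted p = 1.11e-05), Gata6 (2.54 ± 0.29, adjusted p = 0.000156), Sox17 (2.23 ± 0.37, adjusted p = 0.00323) and Lama1 (1.44 ± 0.17, adjusted p = 0.000211). The line means differed 6.09-fold for Pdgfra, 5.81-fold for Gata6, 4.73-fold for Sox17 and 2.71-fold for Lama1. These include the factor that starts the programme, a factor that follows it and the receptor of the lineage. Other members did not pass: Sox7 (1.29, adjusted p = 0.0762), Gata4 (0.75, adjusted p = 0.0535), Foxa2 (0.62, adjusted p = 0.572) and Hnf4a (0.29, adjusted p = 0.722). Neither did Dab2, whose sign was opposite (-0.24, adjusted p = 0.328). Among libraries labelled 48h, 0 of 9 passed (1.01% of all genes). Each line is represented by 2 libraries per culture label, and a difference between lines cannot be told apart from a difference between cultures of them.

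**Figure D3:**
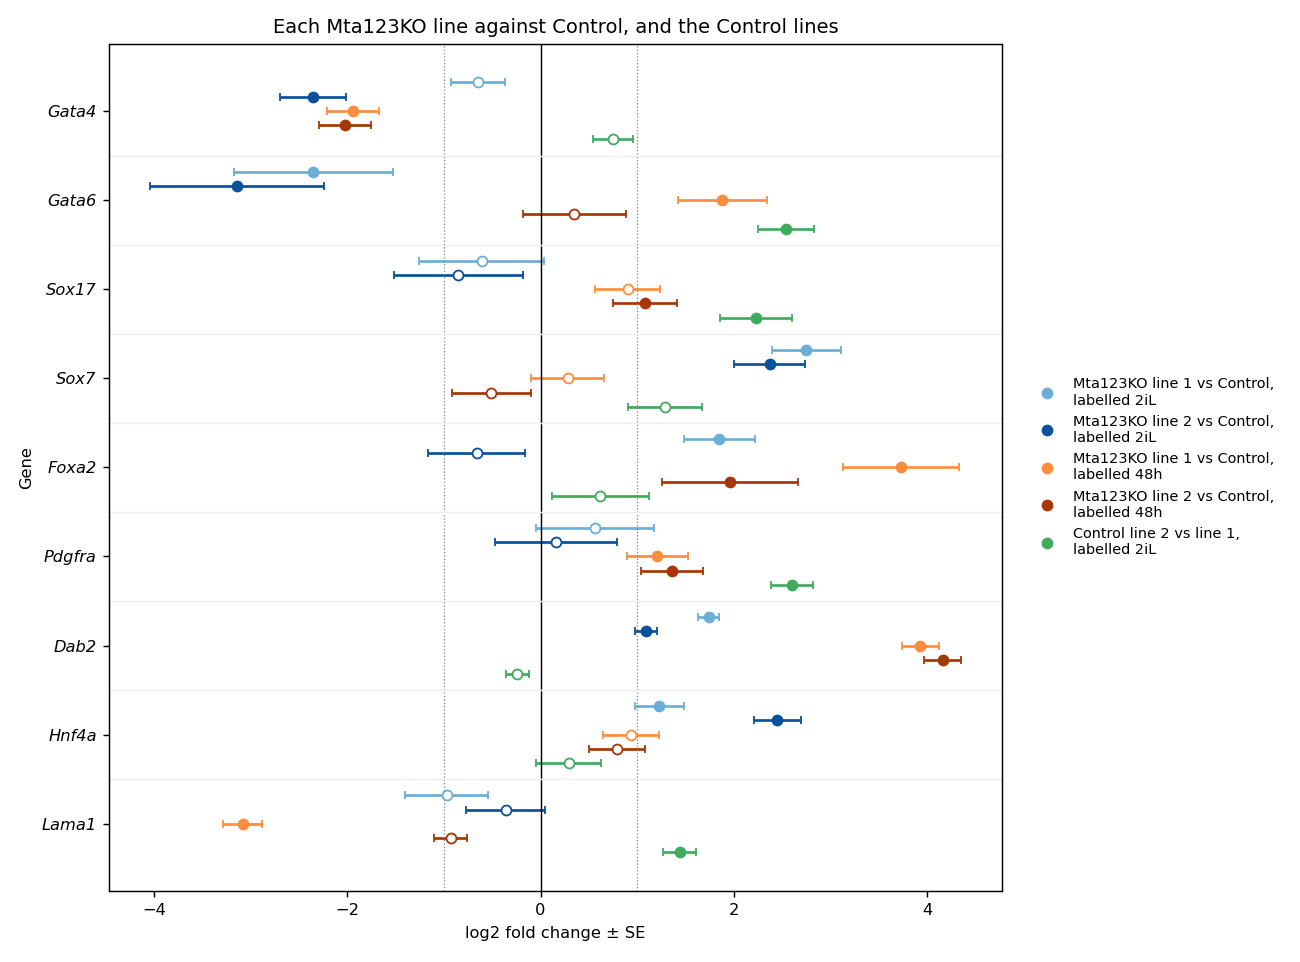
log2 fold change ± SE (horizontal axis) of each primitive endoderm gene in Mta123KO line 1 and line 2 against Control under each culture label, and in Control line 2 against Control line 1 labelled 2iL, filled where the gene passed and open where it did not, with dotted lines at the fold threshold. Dab2 is above 1 for both Mta123KO lines under both labels, Lama1 labelled 48h is at -3.08 for line 1 and -0.93 for line 2, and the Control lines differ in Gata6, Sox17, Pdgfra and Lama1.

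Whether the genotype difference itself changed with culture label was tested as an interaction over the 16 libraries. It passed for 3 of 9 genes, where 13.0% of all genes passed. For Gata6 the Mta123KO difference was higher under the 48h label by 3.98 ± 0.97 on the log2 scale (adjusted p = 0.00736), and the call was lost without Control line 2 labelled 2iL (2.21 ± 0.77, adjusted p = 0.0646) or Mta123KO line 1 labelled 48h (3.04 ± 1.12, adjusted p = 0.0656). For Dab2 it was higher by 2.59 ± 0.29 (adjusted p = 1.36e-05), and for Sox7 lower, at -2.63 ± 0.56 (adjusted p = 0.00316), and both passed whichever of the 8 pairs of line libraries was left out. With the libraries of each line summed, Dab2 passed (adjusted p = 0.0254) and Gata6 (adjusted p = 0.153) and Sox7 (adjusted p = 0.0959) did not. The interaction did not pass for Sox17 (1.72 ± 0.66, adjusted p = 0.0751, but 0.0387 and 0.0187 without the first or second library of Control line 1 labelled 2iL), Foxa2 (2.01 ± 1.10, adjusted p = 0.215) or Hnf4a (-1.10, adjusted p = 0.103). Of these, Sox17 passed without Control line 1 labelled 2iL (2.42), and Foxa2 (3.76) and Hnf4a (-1.58) without Mta123KO line 1 labelled 2iL. Pdgfra (1.69, without Control line 1 labelled 2iL), Gata4 (-1.34, without Mta123KO line 2 labelled 2iL) and Lama1 (-2.44, without Mta123KO line 2 labelled 48h) each passed in 1 such fit.

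Next, the change with culture label was taken within each genotype. In Control, 4 of 9 genes passed, where 23.6% of all genes passed, with Gata6, Foxa2 and Dab2 lower and Lama1 higher in libraries labelled 48h and a median of -0.91 over the 9. Gata6 changed by -3.97 ± 0.77 (SE, adjusted p = 0.00105) with no overlap between the labels, 0.637 to 7.06 CPM against 0.0711 to 0.361 CPM, and by -2.21 ± 0.53 (adjusted p = 0.00669) without Control line 2 labelled 2iL. Dab2 changed by -2.42 ± 0.20 (adjusted p = 1.92e-06), from 4.30 to 5.54 CPM down to 0.54 to 1.16 CPM. Both the initiating factor and the endocytic adaptor were thus lower in every Control library labelled 48h. Foxa2 changed by -2.73 ± 0.56 (adjusted p = 0.00142), although its libraries labelled 48h held at most 5 counts. Lama1 changed by 3.31 ± 0.35 (adjusted p = 1.14e-05), from 4.12 to 13.7 CPM up to 64.3 to 103 CPM. Gata4 (-0.49, adjusted p = 0.0876), Sox17 (-0.95, adjusted p = 0.166), Pdgfra (-0.91, adjusted p = 0.215), Sox7 (-0.01, adjusted p = 0.981) and Hnf4a (0.80, adjusted p = 0.0307) did not pass. Without Control line 1 labelled 2iL, Sox17 (-1.69, adjusted p = 0.00276) and Pdgfra (-1.70, adjusted p = 0.00194) passed as lower, and without line 2 labelled 2iL their signs were positive (0.54 and 0.90).

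In Mta123KO, 2 of 9 genes passed, where 9.46% of all genes passed, and the median was -0.01. Sox7 was lower in libraries labelled 48h (-2.67 ± 0.29, adjusted p = 0.000516), 2.71 to 4.11 CPM against 0.311 to 0.785 CPM. Lama1 was higher (2.29 ± 0.56, adjusted p = 0.0203), 3.63 to 7.01 CPM against 9.37 to 43.5 CPM, and its call was lost without line 2 labelled 48h (0.85, adjusted p = 0.0592) and without line 1 (adjusted p = 0.112) or line 2 (adjusted p = 0.0687) labelled 2iL. Gata4, at -1.23 (adjusted p = 0.0917), passed as lower without line 2 labelled 2iL (-1.85, adjusted p = 0.00527). Dab2, which fell in Control, gave 0.15 (adjusted p = 0.616) here, with 10.1 to 16.9 CPM under the 2iL label and 13.1 to 16.7 CPM under the 48h label. Gata6 gave 0.01 in Mta123KO, with values of 0.367 to 0.747 CPM and 0.256 to 0.856 CPM. The tests of these differences between genotypes are the interactions above, and the culture and genotype comparisons share libraries.

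**Figure D4:**
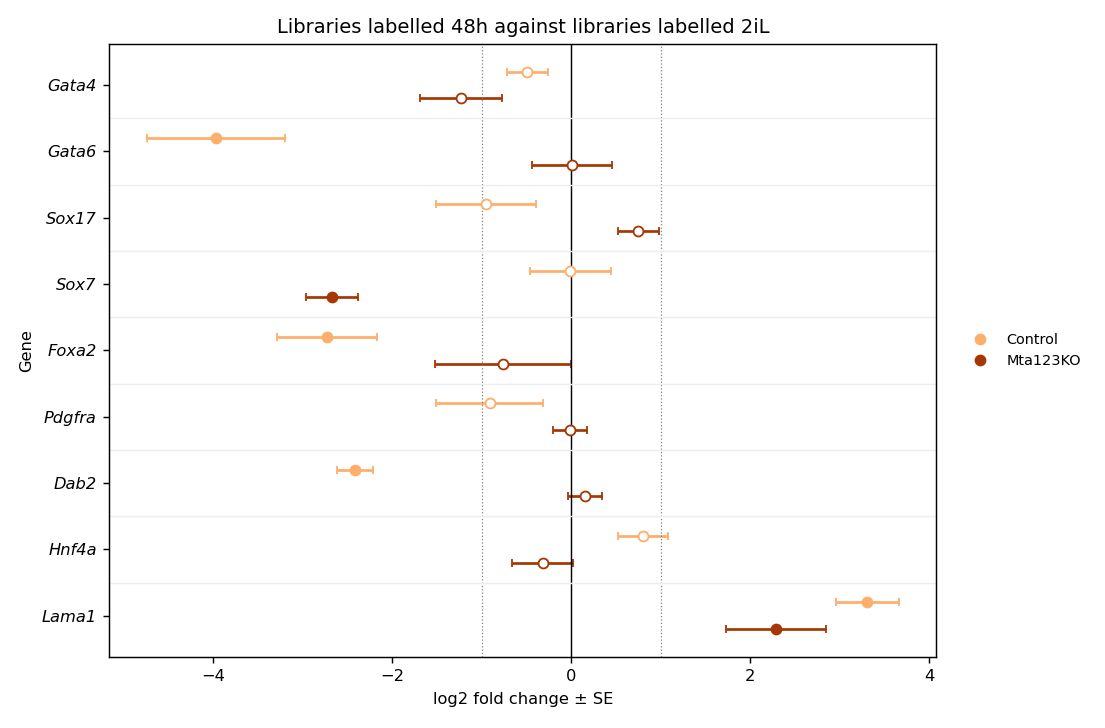
log2 fold change ± SE (horizontal axis) from the 2iL to the 48h label for each primitive endoderm gene in Control and in Mta123KO, filled where the gene passed and open where it did not, with dotted lines at the fold threshold. Lama1 is to the right of the threshold in both genotypes, Gata6, Foxa2 and Dab2 are to the left in Control, and Sox7 is to the left in Mta123KO.

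The single mutants asked which MTA protein the genes depend on, with each mutant set against its own parental or wild-type line. In Mta2_KO, 6 of the 8 genes tested passed, where 11.3% of all genes passed, with Sox7 and Dab2 higher and Hnf4a, Gata6, Lama1 and Gata4 lower, and a median log2 fold change of -0.85, beside 0.00 over all genes. Hnf4a was at 0.616, 0.641 and 0.522 CPM in Mta2_KO and at 8.63, 8.47 and 10.4 CPM in Mta2_WT. The groups were far apart, and the log2 fold change was -3.93 ± 0.16 (SE, n = 3 and 3, adjusted p = 9.83e-08). The Mta2_WT mean (9.15 CPM) was above those of the parental groups Mta1_flox/flox (4.29 CPM) and Mta3_flox/flox (1.13 CPM). The Mta2_KO mean was 0.593 CPM. In the Mta123KO set, scaled apart, Control means were 0.639 CPM (2iL label) and 1.12 CPM (48h label). Whether the difference comes from loss of Mta2 or from this wild-type line was not tested. In Mta123KO against its Control, Hnf4a was at 1.97 under the 2iL label and at 0.86, which did not pass, under the 48h label, whose Control libraries had naive marker levels in the range of the single-mutant libraries.

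Dab2 was at 3.95, 3.82 and 3.26 CPM in Mta2_KO and at 1.55, 1.39 and 1.46 CPM in Mta2_WT (1.34 ± 0.15, adjusted p = 6.86e-05). Sox7 was at 2.67, 1.43 and 2.38 CPM against 0.659, 0.627 and 0.931 CPM (1.56 ± 0.30, adjusted p = 0.00206). Both were above the wild type in every library. Lama1 was at 11.0, 10.2 and 11.7 CPM against 28.0, 27.2 and 24.9 CPM (-1.27 ± 0.08, adjusted p = 1.85e-06), and Gata4 was at 0.873, 1.14 and 1.17 CPM against 2.12, 2.38 and 2.58 CPM (-1.15 ± 0.19, adjusted p = 0.000977). Both were below the wild type in every library. Gata6 was at 0.334, 0.146 and 0.261 CPM against 0.430, 0.575 and 0.962 CPM (-1.37 ± 0.46, adjusted p = 0.0354), and this call was lost in 4 of the 6 fits that left out 1 library, those without Mta2_KO replicate 2 or 3 and those without Mta2_WT replicate 2 or 3, with adjusted p of 0.054 to 0.114. In 1 fit of all single-mutant libraries, Dab2 (1.34 ± 0.48, adjusted p = 0.0689) and Gata4 (-1.14 ± 0.48, adjusted p = 0.128) lost their calls as well.

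Pdgfra, at 2.64, 2.04 and 3.03 CPM in Mta2_KO and 3.93, 4.21 and 3.29 CPM in Mta2_WT, had a log2 fold change of -0.56 ± 0.17 (adjusted p = 0.0251), under the fold threshold. Sox17 was at 0.565, 0.408 and 0.391 CPM against 0.516, 0.261 and 0.310 CPM, groups that overlapped (0.35, adjusted p = 0.51). Foxa2 had 10, 6 and 6 counts against 0, 2 and 3 counts and was not tested. Of 11 trophoblast genes tested, 1 passed as higher and 3 as lower in Mta2_KO.

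In Mta3_del/del, 1 of 8 genes passed, where 6.06% of all genes passed, and the median log2 fold change of the 8 genes was -0.59, beside -0.01 over all genes. Gata6 was at 0.552, 0.790 and 0.474 CPM in Mta3_del/del and at 1.58, 1.97 and 1.77 CPM in Mta3_flox/flox. No mutant library reached the parental range (-1.59 ± 0.36, adjusted p = 0.027), but the call was lost in 5 of the 6 fits that left out 1 library, all but the one without Mta3_del/del replicate 2, with adjusted p of 0.0565 to 0.117. Gata4 was at 3.31, 2.37 and 4.70 CPM against 5.58, 5.33 and 5.04 CPM (-0.67, adjusted p = 0.121), and Sox17 was at 0.552, 1.26 and 1.12 CPM against 1.10, 1.97 and 2.32 CPM (-0.94, adjusted p = 0.154). The other 5 genes had log2 fold changes between -0.63 (Hnf4a) and 0.60 (Sox7) and did not pass.

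In Mta1_del/del, 0 of 8 genes passed, and 0 of 14561 genes passed over the whole table (0%) by edgeR, with 50 genes and 0 members at an unadjusted p under 0.05 and 0 members by DESeq2. These fits did not use the pairing of the libraries by number (correlations of 0.46 to 0.74), so their spread includes differences between pairs. With the pair as a block, 0 of 8 genes passed, and the share over all genes is not given for that fit. The spread between libraries was wide. Gata4 was at 2.37, 3.43 and 7.38 CPM in Mta1_del/del and at 1.36, 6.23 and 6.90 CPM in Mta1_flox/flox, and Gata6 at 0.415, 2.89 and 1.09 CPM against 0.141, 2.13 and 1.25 CPM. Lama1 was at 143, 168 and 126 CPM against 341, 197 and 112 CPM (-0.59 ± 0.38). Hnf4a was at 0.872, 2.01 and 4.42 CPM against 3.14, 4.91 and 4.82 CPM (-0.83 ± 0.57), the member with the largest absolute difference in this comparison, lower within each of the 3 numbered pairs, and -1.04 ± 0.39 (adjusted p = 0.981) with the pair as a block. The groups of these 4 genes overlapped. With counts simulated for this comparison, 35.4% of genes changed by 2.5-fold and 70.1% of those changed by 4-fold were recovered. The changed genes were drawn from all genes passing the filter and the counts held no pairs. These shares are therefore not those of the weakly expressed members.

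**Figure D5:**
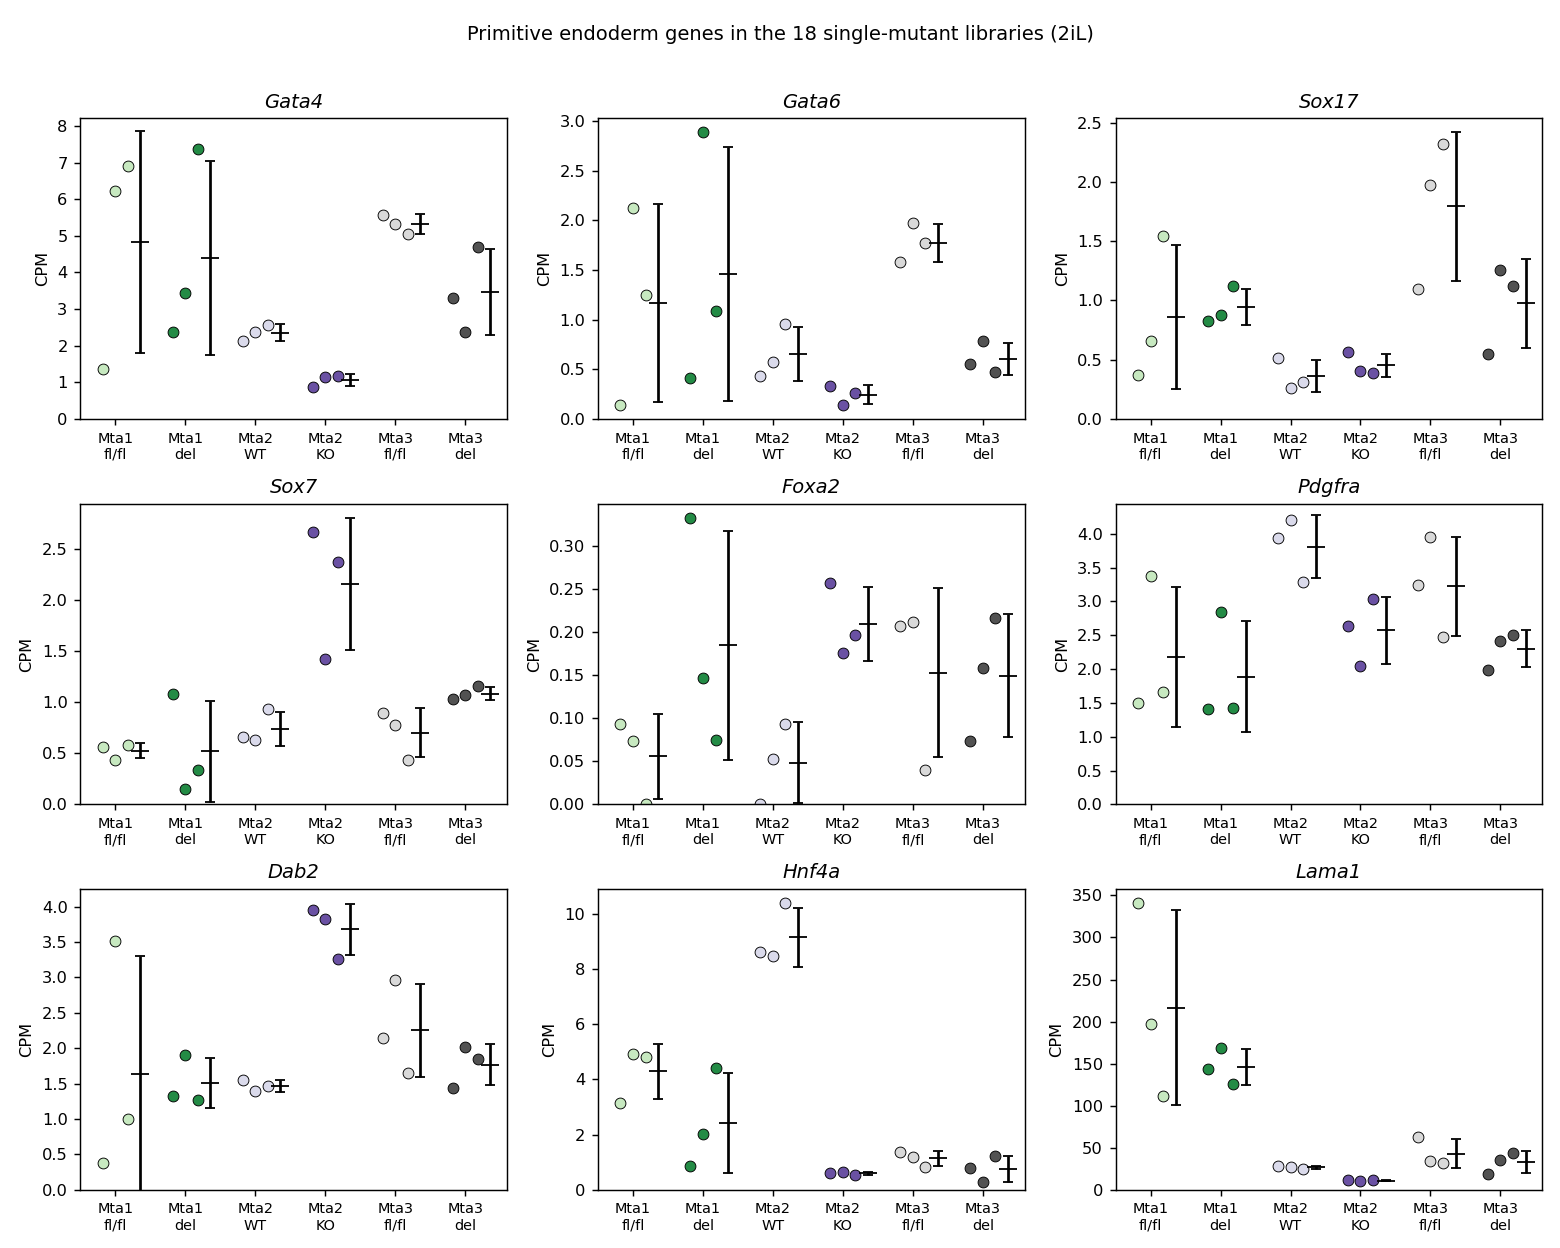
Level (CPM, linear axis) of each primitive endoderm gene in the 18 single-mutant libraries, with a point per library and bars for mean ± SD of 3 libraries. Hnf4a is at 8.47 to 10.4 CPM in Mta2_WT and at 0.522 to 0.641 CPM in Mta2_KO, and Mta1_flox/flox has the widest bar for Gata4, Dab2 and Lama1.

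Genes around the 9 members in the endoderm programme were read from lists (visceral endoderm, parietal endoderm, basement membrane, FGF and PDGF signalling). In these comparisons 20.6% (2iL label) and 20.0% (48h label) of all genes tested passed. Of 10 visceral endoderm genes tested, 6 passed as higher and 0 as lower in Mta123KO labelled 2iL (median log2 fold change 1.30, against 0.01 over all genes). In Mta123KO labelled 48h, 4 passed as higher and 0 as lower (median 0.96). Apoe, the most abundant of these genes in Control labelled 48h, fell under that label from a mean of 542 to 268 CPM (adjusted p = 0.0012). It was not called because its log2 fold change did not lie beyond the fold threshold. All other genes of the list tested under the 48h label had positive log2 fold changes. Lrp2, which encodes megalin, an endocytic receptor that DAB2 binds, rose with Dab2 in Mta123KO, from a mean of 308 to 710 CPM under the 2iL label (1.21 ± 0.25, adjusted p = 0.00334) and from 13.3 to 382 CPM under the 48h label (4.87 ± 0.29, adjusted p = 4.68e-06). In Mta2_KO, where Dab2 also passed as higher, Lrp2 went the other way, from 66.3 to 35.5 CPM (-0.89 ± 0.05, adjusted p = 4.64e-07), under the fold threshold. Amn, whose product amnionless anchors the receptor cubilin, was at 0.651 and 4.1 CPM under the 2iL label (2.66 ± 0.36, adjusted p = 0.000354).

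Of 9 other basement membrane genes, 6 passed as higher and 0 as lower in Mta123KO labelled 2iL (median 1.29) and 5 and 0 in Mta123KO labelled 48h (median 1.16), while the member Lama1 was lower or did not pass. Lamc1, a further laminin chain and the most abundant gene of this list in Control labelled 48h, fell under that label from a mean of 512 to 304 CPM. Its log2 fold change of -0.73 ± 0.07 (adjusted p = 3.32e-05) was under the fold threshold. Col4a1 and Col4a2, the chains of type IV collagen, were higher by 1.93 ± 0.31 (adjusted p = 0.000825) and 2.81 ± 0.44 (adjusted p = 0.000743) under the 2iL label and by 2.87 ± 0.21 (adjusted p = 1.27e-05) and 3.23 ± 0.29 (adjusted p = 3.58e-05) under the 48h label. The parietal endoderm list gave 2 higher and 0 lower of 5 tested under the 2iL label (median 0.18), among them Sparc, a matrix glycoprotein (87.2 to 221 CPM, 1.34 ± 0.23, adjusted p = 0.00116), and 2 higher and 0 lower of 6 tested under the 48h label (median 0.61). Plat of this list was lower under the 2iL label without passing (3 to 1.25 CPM, -1.25 ± 0.51, adjusted p = 0.0677). Sparc did not pass under the 48h label (0.10 ± 0.15, adjusted p = 0.615).

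The list of FGF and PDGF signalling moved both ways. Under the 2iL label 2 of 11 genes passed as higher and 2 as lower (median -0.09). Pdgfa, a ligand of PDGFRA, was higher (6.04 to 51.4 CPM, 3.09 ± 0.35, adjusted p = 0.000123), as was Fgfr2, an FGF receptor of the primitive endoderm (1.74 ± 0.16, adjusted p = 3.86e-05), while Fgf4, the ligand made by the epiblast (101 to 25.9 CPM, -1.96 ± 0.38, adjusted p = 0.00252), and Dusp6, an ERK phosphatase induced by FGF signalling (-1.15 ± 0.21, adjusted p = 0.00182), were lower. Under the 48h label 1 gene passed as higher and 3 as lower (median -0.28), with Fgfr2 higher (1.39 ± 0.12, adjusted p = 2.46e-05) and Fgf4 (-1.36 ± 0.27, adjusted p = 0.00276), Dusp6 (-2.18 ± 0.37, adjusted p = 0.00121) and Etv4 (-2.45 ± 0.32, adjusted p = 0.00027) lower. Several genes of these lists are also made by other tissues, and summed levels of the trophoblast list given above moved with them.

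Over the 16 libraries of the Mta123KO set, which share 2 culture labels and 2 genotypes, the 9 genes did not follow 1 pattern. Pearson's r of log2 CPM between members had a median of 0.13 over 36 pairs and ranged from -0.77 to 0.75. Among 17067 genes with a mean of at least 1 CPM, those most like Gata6 were Ptprcap (r = 0.91), Hic1 (0.89), Itgb1 (0.89), Nhs (0.87) and Ehbp1l1 (0.87), and those most like Sox7 were Fbp1 (0.94), Fbp2 (0.93) and Susd4 (0.91). The genes most like Dab2 reached r = 0.98 (Zkscan7, Selenoi, Cgn, Gm23134 and Kif1a). For Pdgfra the highest value was 0.80 (Rai14), for Gata4 0.96 (Rrm1), for Hnf4a 0.94 (Sdr39u1) and for Lama1 0.97 (Prss35). Such values also carry the differences between the 4 group means.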

How the data were processed

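Total RNA of ES cells was sequenced from stranded libraries, paired-end in the Mta123KO set and single-end in the single-mutant set. The authors deposited raw read counts per gene, and the submitters' processing notes name Trim Galore, TopHat2, featureCounts and the GRCm38 (mm10) genome. The strand setting of the counting and its handling of reads with several alignments are not given in the sources used here. Gene identifiers were matched to GENCODE vM21 symbols, and 0 columns were left unused. ERCC spike-ins (92 rows) stayed out of library sizes.

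Counts were tested with edgeR 4.0.16 in R 4.3.3 (filterByExpr with a minimum count of 10, TMM, glmQLFit and glmQLFTest, Benjamini-Hochberg adjustment over all genes tested), and a gene passed at an adjusted p under 0.05 with an absolute log2 fold change above 1. SE is the log2 fold change divided by the square root of F. Both the 9 genes and the other gene lists were chosen with earlier results of these data known. All 9 genes are named, and of each other list up to 4 genes per comparison that passed, had the largest absolute log2 fold change and averaged 1 CPM or more in the higher group. A few list genes that did not pass are named as well. Genes most like a member were the 5 with the highest Pearson r of log2 CPM (prior count 2).

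Alternatives were DESeq2 1.42.0, RLE size factors, no filter, no fold threshold, spike-in library sizes, a replicate block, summed lines, 1 fit per set, and leaving out each library. Leaving out a line and comparing the Control lines were added after seeing the data. Libraries with the same number come from the same line across culture labels. In Control their deviations from the group means correlated by 0.39 to 0.47, against 0.22 to 0.32 for different numbers of a line. In the Mta1 set the same numbers gave 0.46 to 0.74 and different numbers -0.46 to -0.08. These numbers pair the libraries in Control and in the Mta1 set. In Mta123KO the same numbers gave 0.65 to 0.70 and different numbers of a line 0.66 to 0.68. There the values show a shared line and no pairing by library number. No 2 libraries agreed within sampling noise. On simulated counts for Mta123KO labelled 2iL (21688 genes), 71% of 2.5-fold and 93.8% of 4-fold changes were recovered. The changed genes were drawn from all genes passing the filter and the rest left unchanged, so the shares are not those of the weakly expressed members.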

Additional observations from a re-analysis of the deposited data

Results flagged for a closer look

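Among 36 groups of 4 libraries (9 genes in 4 groups), 2 had a library far from the other 3, and chance flags about 1 in 20 groups. For Sox17 in Control labelled 48h, the gap of the highest library (0.657 CPM) to the next took 0.884 of the group's range, and without that library Sox17 passed as higher in Mta123KO labelled 48h (1.29, adjusted p = 0.00337). For Foxa2 in Control labelled 2iL, the gap of the highest library (0.485 CPM, 22 counts) took 0.889 of the range. The genotype difference differed between culture labels by the interaction test for Gata6 (3.98), Dab2 (2.59) and Sox7 (-2.63), on the log2 scale and as the 48h label less the 2iL label. Mta123KO line 1 differed from line 2 by a direct test for Foxa2 (2.5), Gata4 (1.71) and Hnf4a (-1.22) labelled 2iL and for Lama1 (-2.14) labelled 48h, each with 2 libraries per line.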

How the results depend on the processing

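With the replicate block, Mta123KO against Control labelled 2iL gave 3 genes passing in place of 5, with Gata4 (-1.39, adjusted p = 0.0955) and Gata6 (-2.20, adjusted p = 0.0734) lost, although the numbers do not pair these libraries (correlations of -0.27 to 0.00), and under the 48h label (-0.13 to 0.07) it gave 5 in place of 4, with Sox17 (1.03) gained. The replicate block changed no call among the 9 genes in the culture comparisons or Mta1, and the count for Mta2 and Mta3, whose numbers do not pair, was 6 and 1. With the libraries of each line summed, which leaves 2 samples a group, 2 genes passed under the 2iL label, 2 under the 48h label, 0 for culture in Mta123KO and 1 for the interaction. One fit of all single-mutant libraries gave 3 genes for Mta2 and 0 for Mta3, and with no fold threshold 7 genes passed in both lines labelled 48h. Culture in Mta123KO gave 1 gene without line 1 labelled 2iL and 1 without line 2 labelled 48h, and the interaction 5 without Control line 1 labelled 2iL and 5 without Mta123KO line 1 labelled 2iL. Leaving out 1 library gave 4 to 5 genes (2iL), 4 to 7 (48h), 4 to 5 (culture, Control), 1 to 3 (culture, Mta123KO), 0 (Mta1), 5 to 6 (Mta2), 0 to 1 (Mta3), 3 to 4 (interaction), 2 to 4 (both lines, 2iL) and 2 to 6 (both lines, 48h). The cause of these shifts was not tested. Over all member values and alternatives, 1053 kept direction and side of the threshold, 50 lost a call, 31 gained one, 56 changed sign without being called, and 0 called values reversed. Depth limits Foxa2 in particular, with 0 to 66 counts per library of the Mta123KO set.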

Other observations

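Outside the endoderm lists, other lineage genes also differed between Mta123KO and Control. Of 6 neural genes tested, 0 passed as higher and 4 as lower under the 2iL label (median log2 fold change -2.09), among them Pax6 (-3.22 ± 0.24, adjusted p = 1.54e-05) and Sox1 (-2.37 ± 0.13, adjusted p = 3.51e-06), both factors of neural progenitors, and 3 as lower under the 48h label (median -1.24). Trophoblast factors were higher under the 2iL label, with Gata3 at 0.113 and 5.67 CPM (5.61 ± 0.67, adjusted p = 0.000168) and Gata2 at 0.635 and 24.4 CPM (5.27 ± 0.64, adjusted p = 0.000188), means of 4 libraries each. Gastrulation mesendoderm genes gave 2 higher and 0 lower of 8 tested under the 2iL label (Eomes 1.86 ± 0.14, Kdr 2.30 ± 0.70) and 0 higher and 1 lower of 7 under the 48h label (Gsc -2.01 ± 0.32). Over all genes tested, 20.6% passed under the 2iL label and 20.0% under the 48h label, and the mesendoderm counts lay near these shares. Mesenchymal genes gave 3 higher and 1 lower of 5 tested under the 2iL label and 2 higher and 0 lower of 3 under the 48h label.

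In Control, visceral endoderm genes gave 2 higher and 5 lower of 8 tested under the 48h label (median -1.58), and Lrp2 fell from 308 to 13.3 CPM (-4.54 ± 0.10, adjusted p = 2.91e-10). In Mta123KO, 0 passed as higher and 2 as lower of 11 tested, Cubn (-1.87 ± 0.26) and Apob (-1.40 ± 0.23). The shares over all genes tested were 23.6% in Control and 9.46% in Mta123KO. Basement membrane genes moved both ways in Control, with Nid1 (28 to 300 CPM) higher like Lama1 and Col4a1 (24 to 5.33 CPM) lower. In Mta2_KO, where 11.3% of all genes passed, the FGF and PDGF list gave 1 higher, Fgfr2 (15.5 to 75.4 CPM). It gave 5 lower of 11, among them Spry2 (113 to 37.1 CPM), an inhibitor of FGF signalling induced by it. Of 6 visceral endoderm genes tested in Mta2_KO, 0 passed as higher and 1 as lower, Cited1 (28.3 to 2 CPM). By less than the fold threshold, Lrp2 (66.3 to 35.5 CPM) and Apob (6.08 to 3.52 CPM) fell and Apoe (454 to 718 CPM) rose. In Mta3_del/del, where 6.06% of all genes passed, Col4a1 (32.2 ± 13 to 9.1 ± 1.23 CPM, SD, n = 3) and Col4a2 (17.9 ± 5.07 to 4.23 ± 0.416 CPM) were lower. Mesenchymal genes fell in the same comparison, 2 lower and 0 higher of 6 tested (median -1.79), with Col1a1 at 11.4 ± 10.2 and 2.61 ± 0.194 CPM and Col3a1 at 7.47 ± 11.3 and 0.108 ± 0.12 CPM, and their part in the type IV collagen values was not tested.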
